A study of Mus musculus with 2 samples.

Results

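Fibroblasts of the colon are spindle cells of the lamina propria, the loose tissue under the epithelium, and of the submucosa below it. They build collagen and proteoglycan matrix, and they release signals that reach the epithelium and immune cells: Wnt ligands and R-spondins hold crypt cells in a stem-like state, BMP ligands push them to differentiate, and antagonists such as Grem1 and the Sfrp proteins act against each. Telocytes, also called subepithelial fibroblasts with high Pdgfra, lie against the epithelium and carry Foxl1, BMP ligands and Wnt5a.

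The cells described here, the other lamina propria fibroblasts, are those that the authors annotated as fibroblast and that had a value above 0 for fewer than 2 of 6 telocyte genes: Foxl1, Bmp5, Bmp7, Wnt5a, F3 and Sox6. Membership was thus chosen by the measured values of these genes, and their low levels are no finding. They numbered 507 of the 14097 cells in the series. The annotated fibroblasts with 2 or more of these genes are called telocyte-like below. All cells came from distal colon adenomas, taken at 25 weeks of age from mice with Apcmin, a truncating Apc allele that gives intestinal adenomas, and LSL-mTERT, a stop-cassette allele of mouse Tert. The labels give 1 library of G4+T and 1 of G0+T mice, without saying how many mice or adenomas were pooled or which Cre, if any, removed the stop cassette.

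The authors' class file puts 6189 cells in CIN_high and 7908 cells in CIN_low, 1 library each. The labels do not settle which of them is G4+T and which is G0+T, so the libraries are named by class. CIN_high held 503 of the cells described here and CIN_low held 4. They made up 52.1% of 966 annotated fibroblasts in CIN_high (exact Clopper-Pearson interval 48.9 to 55.3%), against 4 of 21 fibroblasts in CIN_low (19.0%, interval 5.45 to 41.9%). As shares of all cells they were 8.13% of CIN_high (7.46 to 8.84%) and 0.0506% of CIN_low. With 1 library per class no difference between libraries could be tested, and intervals here cover counting error only. Of the barcodes, 11 occurred in both libraries, among them that of 1 cell described here.

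In CIN_high the other lamina propria fibroblasts had a median of 6664 UMIs per cell (range 1252 to 18365) and 2544 genes, and 4.52% of UMIs were mitochondrial. The 463 telocyte-like fibroblasts had a median of 6986 UMIs, the 83 pericytes 5345 and the 602 endothelial cells 3715. Levels below are means over cells of UMIs per 10000 UMIs in CIN_high, unless CIN_low is named. Since both the annotation and the rule rest on expression, every ratio between classes is a description, and no p-value is given.

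The markers of fibroblasts were present. Dcn, the collagen-binding proteoglycan decorin, stood at 82.3 UMIs per 10000 in other lamina propria fibroblasts, 31.9 in telocyte-like fibroblasts, 14.2 in pericytes and 0.295 in endothelial cells. Col3a1, a chain of fibrillar collagen, stood at 23.4, against 26.5 in telocyte-like fibroblasts, 13.4 in pericytes and 0.128 in endothelial cells. Col1a1 followed the same order, with 9.19 in other lamina propria fibroblasts, 11.1 in telocyte-like fibroblasts and 4.99 in pericytes. Neither collagen passed 2-fold between the fibroblast classes, whereas Dcn was 2.58-fold higher in other lamina propria fibroblasts.

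The 3 markers that are more particular to lamina propria fibroblasts behaved less evenly. Cxcl13, the chemokine that draws B cells to lymphoid follicles, stood at 29.7 in other lamina propria fibroblasts and 20.7 in telocyte-like fibroblasts, with no UMI in 83 pericytes. Adamdec1, a secreted metalloprotease of gut stroma, was at 23.3 in other lamina propria fibroblasts, below the 40.7 of telocyte-like fibroblasts. Grem1, a secreted BMP antagonist, was at 14.0 in other lamina propria fibroblasts and 7.52 in telocyte-like fibroblasts.

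When every cell was thinned to 3000 UMIs, which left out 44 shallower cells, 100% of the remaining 459 other lamina propria fibroblasts had a UMI of Dcn, 93.9% of Col3a1 and 81.5% of Col1a1. Grem1 was seen in 78.4% of them, Adamdec1 in 74.7% and Cxcl13 in 50.1%. At full depth the shares were 99.8% for Dcn, 88.7% for Grem1, 76.7% for Adamdec1 and 53.9% for Cxcl13. Of the 447 telocyte-like fibroblasts left at 3000 UMIs, 65.3% had a UMI of Cxcl13, 97.1% of Adamdec1, 40.3% of Grem1 and 74.7% of Dcn. Col3a1 was seen in 98.7% of them and Col1a1 in 88.4%. Cxcl13 thus had the higher mean in other lamina propria fibroblasts but was seen in a smaller share of them. In T and NK cells none of the 6 markers passed 2.90% at 3000 UMIs, where 138 cells remained. The median depth of T and NK cells was 3442 UMIs at the start. Adamdec1 was seen in 7.82% of 2288 myeloid cells and 42.3% of 71 pericytes at 3000 UMIs. Cxcl13 and Adamdec1 were thus not seen in a large part of the class at a depth that showed Dcn in all of it.

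**Figure D1:**
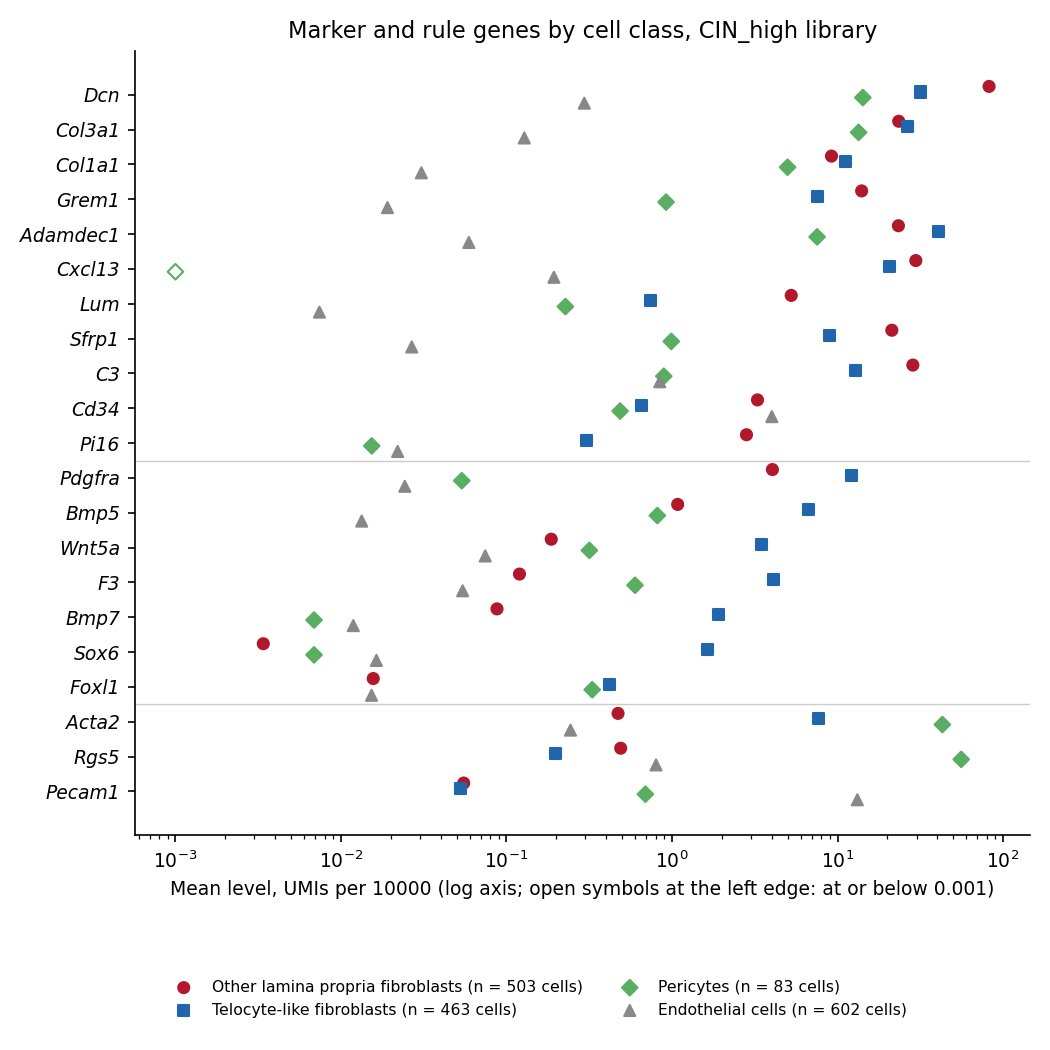
Mean level in UMIs per 10000 (log axis) of the fibroblast markers (top), Pdgfra and the 6 rule genes (middle) and markers of other types (bottom) in other lamina propria fibroblasts (circles), telocyte-like fibroblasts (squares), pericytes (diamonds) and endothelial cells (triangles) of CIN_high. Dcn was highest in other lamina propria fibroblasts at 82.3. The rule genes were highest in telocyte-like fibroblasts, and the membership rule itself sets their order between the fibroblast classes.

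Of the 503 cells, 223 had none of the 6 rule genes and 280 had exactly 1, which was Bmp5 in 201 of them. Just outside the rule lay 154 cells with 2. Most levels followed at that line differed by less than 3-fold, and Gas1, a gene described below, was at 0.461 UMIs per 10000 with 1 rule gene and 0.0415 with 2. The cells with 1 rule gene held 74.1 UMIs per 10000 of Dcn, and those with 2 held 51.4. Lum was at 3.93 with 1 rule gene and 1.45 with 2, and Adamdec1 at 28.3 with 1 and 37.5 with 2. Acta2, smooth muscle actin, was at 0.676 with 1 rule gene and 1.51 with 2, yet at 10.8 in cells with 3 or more. Depth did not separate the sides, with medians of 6812 UMIs for 1 rule gene and 6598 for 2.

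Markers of other cell types were scarce. The 8 pericyte markers summed to 2.15 UMIs per 10000 in other lamina propria fibroblasts and 73.7 in pericytes, and 1 of them had no UMI. The 8 endothelial markers summed to 1.22 in other lamina propria fibroblasts, against 66.9 in endothelial cells. The 8 smooth muscle markers summed to 1.49 in other lamina propria fibroblasts, 14.8 in telocyte-like fibroblasts and 130.4 in pericytes. Of 6 enteric glia markers 4 were at 0, and of 5 mesothelial markers 3 were at 0. The myeloid list summed to 3.03 in other lamina propria fibroblasts and 2.37 in telocyte-like fibroblasts, and the neutrophil list to 4.73 in other lamina propria fibroblasts and 9.12 in telocyte-like fibroblasts. With called doublets left out of both classes, the myeloid list summed to 1.20 in other lamina propria fibroblasts and 1.09 in telocyte-like fibroblasts, and the neutrophil list to 2.98 in other lamina propria fibroblasts and 2.73 in telocyte-like fibroblasts. The part of these markers in the results below was not tested, except where doublets were left out.

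Telocyte-like fibroblasts were the nearest class. The genes compared had a level of 0.5 UMIs per 10000 or more and detection in 10% of cells or more in the class where they were higher, and 30 UMIs or more over both classes. Of these 3576 genes, 99 were at least 2-fold higher in other lamina propria fibroblasts, which is 2.77%, and 140 were at least 2-fold lower, which is 3.91%. The genes with the largest ratios in favour of other lamina propria fibroblasts were Gas1, Pi16, Cd81, Npy1r, Mfap5, Lum, Col8a1, Foxp2, Prss23, Lbp, Cd34 and Il33. Gas1, a membrane protein that binds hedgehog ligands, was at 0.733 in other lamina propria fibroblasts and 0.0157 in telocyte-like fibroblasts, a 46.6-fold ratio of means. The ratio of its summed UMIs (260 against 8) was 33.7, with a counting interval of 16.8 to 78.9.

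Pi16, a peptidase inhibitor carried by fibroblasts around vessels in several tissues, was at 2.82 in other lamina propria fibroblasts and 0.305 in telocyte-like fibroblasts. Cd81, a tetraspanin that marks Grem1-bearing trophocytes of the mouse gut, was at 1.16 in other lamina propria fibroblasts and 0.134 in telocyte-like fibroblasts. Cd34, a sialomucin found on endothelium and on fibroblasts away from the epithelium, was at 3.28 in other lamina propria fibroblasts and 0.651 in telocyte-like fibroblasts. These 3 genes were seen in part of the class: 23.9% of cells had a UMI of Pi16, 25.0% of Cd81 and 66.2% of Cd34, against 4.32% of telocyte-like fibroblasts for Pi16, 7.13% for Cd81 and 21.4% for Cd34. Npy1r, a receptor for neuropeptide Y, was at 1.76 in other lamina propria fibroblasts and 0.207 in telocyte-like fibroblasts. Il33, an alarmin cytokine, was at 0.598 in other lamina propria fibroblasts and 0.126 in telocyte-like fibroblasts.

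In the other direction stood Col4a5, Smoc1, Bmp3, Emid1, Rhox5, Procr, Rbp4, Tagln, Acta2, Wif1, Ednrb and Mrvi1. Col4a5, a basement membrane collagen, had 4 UMIs in all in other lamina propria fibroblasts (0.0101 per 10000) and 1.14 per 10000 in telocyte-like fibroblasts. Its partner Col4a6 had no UMI in other lamina propria fibroblasts and 0.337 per 10000 in telocyte-like fibroblasts. Against a floor of 3 UMIs over the class it was 38.7-fold lower. Rbp4, the plasma carrier of retinol, was at 0.286 in other lamina propria fibroblasts and 5.45 in telocyte-like fibroblasts. Procr, the protein C receptor, was at 0.197 in other lamina propria fibroblasts and 3.89 in telocyte-like fibroblasts. Bmp3 and Ednrb, both on the telocyte marker list, were at 0.0267 and 0.0516 in other lamina propria fibroblasts, against 1.03 and 0.711 in telocyte-like fibroblasts.

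**Figure D2:**
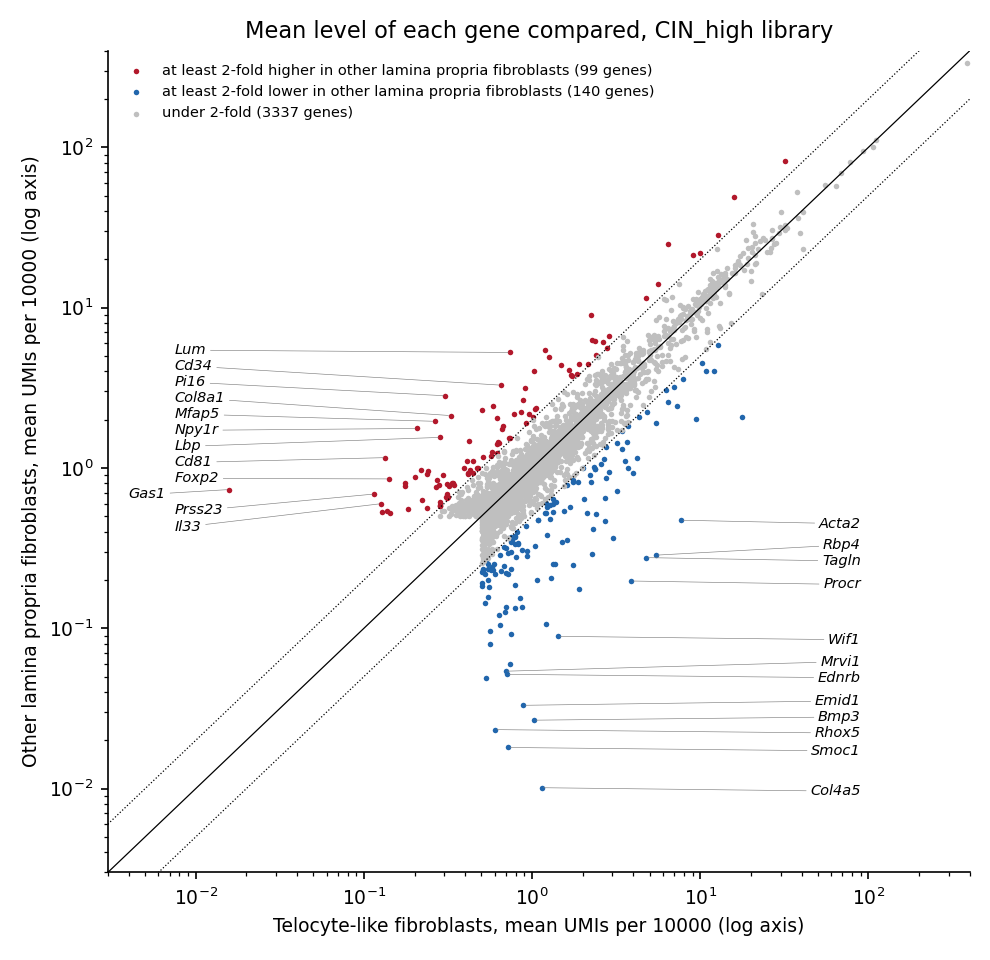
Mean level of each gene compared in other lamina propria fibroblasts (vertical) and telocyte-like fibroblasts (horizontal) of CIN_high, in UMIs per 10000 on log axes, with the line of equal levels and dotted lines at 2-fold. The 99 genes past 2-fold above the line include Gas1, Pi16 and Lum, and the 140 below it include Col4a5, Rbp4 and Acta2.

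Contractile genes gave the largest share past 2-fold among the functional lists. Of 9 measured contractile genes 7 were lower in other lamina propria fibroblasts, none was higher, and the median log2 ratio was -2.36. A list gene was taken as measured when 2% of cells or more in either class had it. The 6 rule genes were left out of every functional list and of all genes counted. By that rule 4.60% of 11743 genes were 2-fold higher and 5.70% were 2-fold lower, with a median of -0.06. Acta2 was at 0.472 in other lamina propria fibroblasts and 7.69 in telocyte-like fibroblasts. Tagln, an actin-binding protein of smooth muscle, was at 0.276 in other lamina propria fibroblasts and 4.78 in telocyte-like fibroblasts, and Myl9, the myosin light chain, at 0.176 in other lamina propria fibroblasts and 1.90 in telocyte-like fibroblasts. The measured genes that stayed within 2-fold were Des and Cald1. Cald1, the actin-binding caldesmon, was at 8.04 in other lamina propria fibroblasts and 15.2 in telocyte-like fibroblasts.

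Among matrix genes the classes split by kind. No fibrillar collagen of 6 measured passed 2-fold, with Col1a2 at 16.8 in other lamina propria fibroblasts and 20.0 in telocyte-like fibroblasts. Of 13 measured proteoglycan and hyaluronan genes 6 were higher and 2 lower. Lum, the fibril-spacing proteoglycan lumican, was at 5.25 in other lamina propria fibroblasts and 0.741 in telocyte-like fibroblasts, and was seen in 58.1% of other lamina propria fibroblasts and 16.2% of telocyte-like fibroblasts. Has1, a hyaluronan synthase, was at 2.43 in other lamina propria fibroblasts and 0.585 in telocyte-like fibroblasts. Ogn, the proteoglycan osteoglycin, went the other way, at 2.08 in other lamina propria fibroblasts and 17.8 in telocyte-like fibroblasts.

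Of 24 elastic fibre and matrix glycoprotein genes 6 were higher and 1 lower. Fbln1 and Fbln2, fibulins of elastic fibres and basement membranes, were at 14.0 and 6.64 in other lamina propria fibroblasts, against 5.58 and 2.85 in telocyte-like fibroblasts. Eln, elastin itself, was at 3.77 in other lamina propria fibroblasts and 1.73 in telocyte-like fibroblasts, and Tnxb, the collagen-binding tenascin X, at 6.26 in other lamina propria fibroblasts and 2.27 in telocyte-like fibroblasts. Tnc, the tenascin of healing and tumour stroma, was the lower one at 1.01 in other lamina propria fibroblasts and 2.33 in telocyte-like fibroblasts. Among 14 other collagens 2 were higher and 4 lower. Col14a1, a fibril-associated collagen, was at 5.43 in other lamina propria fibroblasts and 1.20 in telocyte-like fibroblasts, whereas Col12a1 was at 1.91 in other lamina propria fibroblasts and 5.43 in telocyte-like fibroblasts.

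Complement genes leaned towards other lamina propria fibroblasts, with 7 of 16 measured at least 2-fold higher, 1 lower and a median log2 ratio of 0.92. C3, the central complement component, was at 28.5 in other lamina propria fibroblasts and 12.8 in telocyte-like fibroblasts. Cd55, which protects cells from complement, was at 9.04 in other lamina propria fibroblasts and 2.24 in telocyte-like fibroblasts. C4b stayed under 2-fold at 23.2 in other lamina propria fibroblasts and 12.6 in telocyte-like fibroblasts. C1qb and C1qc, products of macrophages, were among the 7 higher genes, at 0.384 and 0.221 in other lamina propria fibroblasts. With called doublets left out they were at 0.213 and 0.126, their log2 ratios were 0.96 and 0.90, and 5 of 16 complement genes were 2-fold higher.

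Signals to the epithelium differed in both directions. Among secreted Wnt antagonists 3 of 7 were higher and 1 lower. Sfrp1 was at 21.3 in other lamina propria fibroblasts and 8.99 in telocyte-like fibroblasts, Sfrp2 at 3.85 in other lamina propria fibroblasts and 1.84 in telocyte-like fibroblasts, and Wif1, which binds Wnt proteins directly, at 0.0891 in other lamina propria fibroblasts and 1.42 in telocyte-like fibroblasts. Rspo3, which strengthens Wnt signalling in crypts, was at 0.760 in other lamina propria fibroblasts and 0.269 in telocyte-like fibroblasts. Of 6 Wnt ligands and R-spondins, counted without the rule gene Wnt5a, 2 were higher and 1 was lower. The lower gene was Wnt4, at 1.34 in other lamina propria fibroblasts and 2.76 in telocyte-like fibroblasts. Of 7 BMP antagonists 2 were higher and none was lower, with a median log2 ratio of 0.92. Grem1 stayed under 2-fold, with a ratio of 1.86.

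Of 10 BMP and TGF-beta ligands, counted without the rule genes Bmp5 and Bmp7, 2 were higher and 3 lower. Bmp4 was at 6.43 in other lamina propria fibroblasts and 8.46 in telocyte-like fibroblasts, whereas Bmp2 was at 0.522 in other lamina propria fibroblasts and 2.13 in telocyte-like fibroblasts. Inhba, the activin A subunit, was at 0.251 in other lamina propria fibroblasts and 1.36 in telocyte-like fibroblasts. Nrg1, an ErbB ligand of telocytes, was at 0.999 in other lamina propria fibroblasts and 3.74 in telocyte-like fibroblasts. Pdgfra, the receptor whose level separates fibroblast types in the gut, was at 4.04 in other lamina propria fibroblasts and 12.1 in telocyte-like fibroblasts, and was the 1 lower gene among 18 growth factor receptors.

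Of 12 measured cytokines 2 were at least 2-fold higher and 3 lower, and of 6 CC chemokines 1 was higher and none lower. Of 10 CXC and CX3C chemokines none was higher and 2 were lower, Cxcl14 at 2.01 in other lamina propria fibroblasts and 9.48 in telocyte-like fibroblasts, and Cxcl9 at 1.06 in other lamina propria fibroblasts and 2.56 in telocyte-like fibroblasts. The higher CC chemokine was Ccl19, at the low levels of 0.059 in other lamina propria fibroblasts and 0.0174 in telocyte-like fibroblasts. Ccl11, the eosinophil chemokine eotaxin, stayed under 2-fold at 11.6 in other lamina propria fibroblasts and 6.83 in telocyte-like fibroblasts. Tnfsf13b, the B cell survival factor BAFF, also stayed under 2-fold at 3.81 in other lamina propria fibroblasts and 2.37 in telocyte-like fibroblasts. Il6 was at 0.846 in other lamina propria fibroblasts and 0.273 in telocyte-like fibroblasts, and Il34, a ligand of the macrophage receptor Csf1r, at 0.135 in other lamina propria fibroblasts and 0.871 in telocyte-like fibroblasts. Cdkn1a, the cell cycle inhibitor p21, was at 4.42 in other lamina propria fibroblasts and 1.90 in telocyte-like fibroblasts. Of 16 genes that respond to tissue dissociation only Nr4a1 passed 2-fold, at 5.57 in other lamina propria fibroblasts and 2.78 in telocyte-like fibroblasts.

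**Figure D3:**
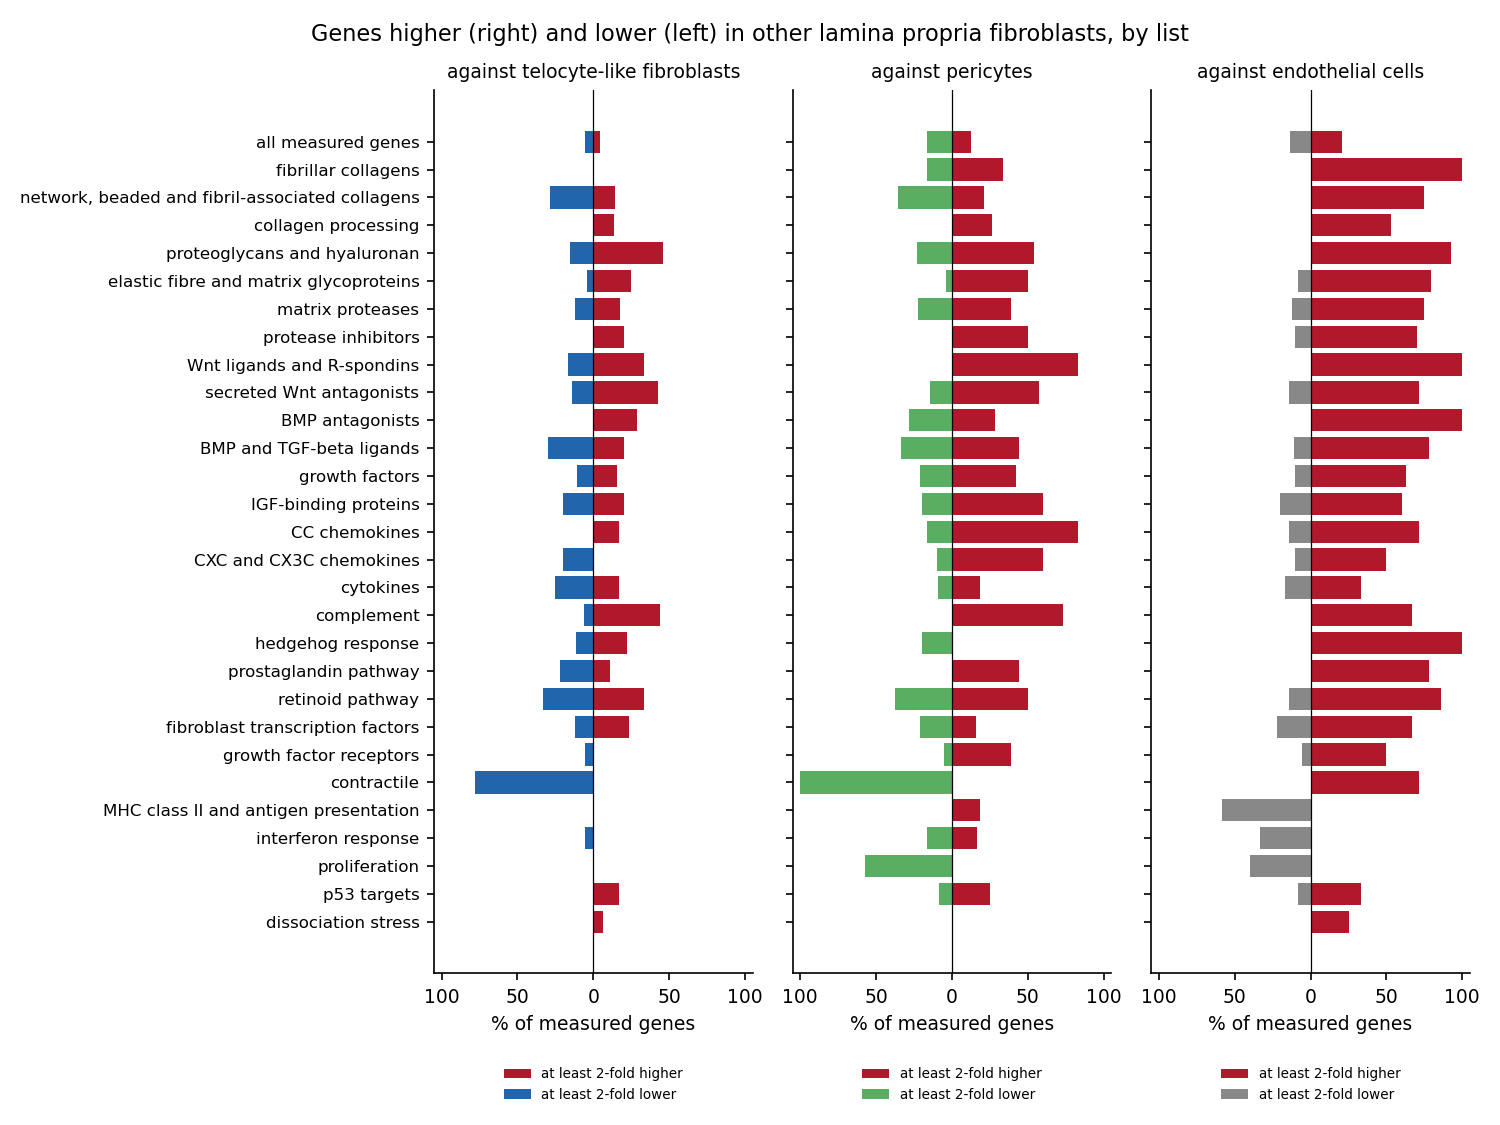
Percent of the measured genes of each list that were at least 2-fold higher (right) or lower (left) in other lamina propria fibroblasts than in telocyte-like fibroblasts, pericytes and endothelial cells of CIN_high, with all measured genes in the top row. Contractile genes lie to the left of 0 against telocyte-like fibroblasts (7 of 9 lower) and pericytes (10 of 10 lower), and more complement genes lie to the right than to the left against each class.

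Pericytes are the contractile cells around small vessels. Against the annotated pericytes, 394 of 3937 genes were at least 2-fold higher (10.0%) and 470 at least 2-fold lower (11.9%). In this class the smooth muscle markers summed to 130.4 and the pericyte markers to 73.7. Whether it holds smooth muscle cells as well as pericytes was not tested, so ratios of contractile genes describe the class as annotated. Cxcl13, Clec3b and Sfrp2 had no UMI in the 83 pericytes. Against a floor of 3 UMIs over the pericytes, they were 524-fold, 201-fold and 67.8-fold higher in other lamina propria fibroblasts. The lower limits of the counting intervals for their summed UMIs were 399, 165 and 53.1. Clec3b, the plasminogen-binding tetranectin, was at 11.4 in other lamina propria fibroblasts and Sfrp2 at 3.85. The other genes among the 12 with the largest ratios were Pappa, Pi16, Lbp, C1qtnf3, Has1, Hs3st1, Pdgfra, Htra3 and Npy1r. Pappa, a protease that cleaves IGF-binding proteins, was at 4.95 in other lamina propria fibroblasts and had 1 UMI in all in pericytes, a summed ratio of 260.2 with an interval of 46.6 to 10284. Pdgfra had 3 UMIs in pericytes, a summed ratio of 67.0 with an interval of 22.9 to 325.4.

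The genes with the largest ratios in favour of pericytes were Cnn1, Klk8, Notch3, Lmod1, Actg2, Ndufa4l2, Vtn, Aoc3, Myh11, Tspan15, Pdgfc and Cpe. Myh11, smooth muscle myosin, was at 0.136 in other lamina propria fibroblasts and 25.7 in pericytes. Notch3, the receptor that shapes mural cells, had 2 UMIs in all in other lamina propria fibroblasts and stood at 2.42 in pericytes. Rgs5, a defining pericyte gene, was at 0.490 in other lamina propria fibroblasts and 55.9 in pericytes.

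Against pericytes 11 of 15 measured complement genes were higher and none lower, where 12.6% of 12352 genes were 2-fold higher and 16.3% lower by the rule for lists. With called doublets left out 9 of 15 complement genes and 4 of 6 CC chemokines were higher. C3 was at 28.5 in other lamina propria fibroblasts and 0.892 in pericytes. Of 6 CC chemokines 5 were higher, with Ccl11 at 11.6 in other lamina propria fibroblasts and 1.94 in pericytes. The 1 lower was Ccl19, at 0.0590 in other lamina propria fibroblasts and 0.719 in pericytes. Of 6 Wnt ligands and R-spondins 5 were higher, with Wnt4 at 1.34 in other lamina propria fibroblasts and 0.117 in pericytes. Igfbp4 was at 27.9 in other lamina propria fibroblasts and 2.16 in pericytes.

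Against endothelial cells, 686 of 4025 genes were at least 2-fold higher (17.0%) and 732 at least 2-fold lower (18.2%). The higher genes with the largest ratios were Chl1, Dpep1, Gas1, Mfap4, Mrc2, Cntn1, Sfrp1, Svep1, Matn2, Grem1, Lum and Col14a1. Svep1, a large matrix protein that binds integrins, was at 8.88 in other lamina propria fibroblasts and had 6 UMIs in 602 endothelial cells. Chl1, a neural adhesion molecule, was at 4.03 and had 1 UMI in endothelial cells, a summed ratio of 1048 with an interval of 188 to 41431. The lower genes with the largest ratios were Selp, Cd300lg, Emcn, Cd36, Sele, Rbp7, Adgrl4, Adgrg1, Rasip1, Cdh5, Fabp4 and Stc1, and each of them except Fabp4 had 3 UMIs or fewer in all in other lamina propria fibroblasts. Selp, the P-selectin that captures leukocytes, had 1 UMI there and stood at 8.98 in endothelial cells.

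All 6 measured fibrillar collagens and all 6 measured BMP antagonists were higher than in endothelial cells, where 21.0% of 11735 genes were 2-fold higher and 13.7% lower by the rule for lists. Of 12 genes of MHC class II and antigen presentation 7 were lower and none higher. Cd74, the MHC class II chaperone, was at 2.08 in other lamina propria fibroblasts and 13.8 in endothelial cells, and with called doublets left out at 1.15 in other lamina propria fibroblasts and 12.8 in endothelial cells. Ccl21a, the lymphatic chemokine for CCR7-bearing cells, was at 0.148 in other lamina propria fibroblasts and 17.8 in endothelial cells. Igfbp3 was at 0.927 in other lamina propria fibroblasts and 14.9 in endothelial cells.

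The class was not uniform. Clustering of the 503 cells, without rule, mitochondrial, ribosomal, predicted and some other genes, was set to 5 clusters. They are described by number because the same genes made them. Cluster 1 held 323 cells (64.2%), cluster 2 held 81 (16.1%), cluster 3 held 54 (10.7%), cluster 4 held 34 (6.76%) and cluster 5 held 11 (2.19%). All 11 cells of cluster 5 were called as doublets, out of 13 such calls in the class. Their leading genes were myeloid, with Fcer1g at 17.9 and Lyz2 at 39.7 UMIs per 10000, and Lyz2 was at or under 0.569 in clusters 1 to 4. That cluster is left unnamed and is not described further.

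Clusters 2 and 4 hardly carried Adamdec1, which was abundant in clusters 1 and 3. Adamdec1 was at 0.123 in cluster 2 and 0.0753 in cluster 4, against 32.5 in cluster 1 and 20.5 in cluster 3. Cluster 3 was set apart by Cxcl13, at 171 per 10000 there and 12.7 in the remaining cells, so that 3711 of the class's 9569 Cxcl13 UMIs lay outside its 54 cells. Sfrp2 was at 0.0244 in cluster 2 and 0.0621 in cluster 4, against 4.71 in cluster 1 and 6.97 in cluster 3. Bmp4 was at 1.95 in cluster 2 and 1.31 in cluster 4, against 7.90 in cluster 1 and 8.24 in cluster 3. Tnfsf13b was at 0.871 in cluster 2 and 0.587 in cluster 4, against 4.65 in cluster 1 and 5.44 in cluster 3.

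Clusters 2 and 4 together held 115 cells, or 22.9% of the class (19.3 to 26.8%), with a median of 7552 UMIs, against 6244 in the 377 cells of clusters 1 and 3. Cluster 1 was led by Cdca7l, Cxcl14, Bdkrb2 and Lama1, and cluster 3 by Cxcl13, Pgm5 and Lrrtm3. Cluster 2 was led by Fxyd6, Thbs2, Gdf10, Cilp and Gas1. Cluster 4 was led by Prg4, Lrrn4cl, Prss23, Pcolce2, Ackr4 and Pi16. Pi16 was at 8.23 in cluster 2 and 19.8 in cluster 4, against 0.155 in cluster 1 and 0.103 in cluster 3. Dcn was at 149 in cluster 2 and 162 in cluster 4, against 60.3 in cluster 1 and 71.2 in cluster 3. Lum was at 16.0 over clusters 2 and 4 and 2.07 over clusters 1 and 3. None of the 6 rule genes was seen in 76.5% of cells in cluster 2 and 70.6% in cluster 4, against 35.6% in cluster 1 and 33.3% in cluster 3.

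The markers of the class label were spread unevenly over its clusters. The list of lamina propria fibroblast markers (Adamdec1, Cxcl13, Ccl11, Ccl8, Fgf7, Cxcl12, Abca8a and Lum) summed to 31.9 in cluster 2 and 27.0 in cluster 4, against 81.3 in cluster 1 and 234 in cluster 3. Over the whole class that list summed to 85.4, against 85.3 in telocyte-like fibroblasts, so it did not set the classes apart. The list of trophocyte and adventitial markers summed to 112 in cluster 2 and 142 in cluster 4, against 70.9 in cluster 1 and 71.9 in cluster 3. Over the whole class it summed to 81.9, against 42.2 in telocyte-like fibroblasts. Cxcl13 was at 1.54 in cluster 2, where 11.1% of cells had a UMI, and at 0.0880 in cluster 4, against 16.5 in cluster 1 and 171 in cluster 3. Clusters 2 and 4 thus held little of the label's markers Adamdec1 and Cxcl13 while they kept Col1a1, Col3a1, Dcn and Grem1. They are given here by their leading genes.

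**Figure D4:**
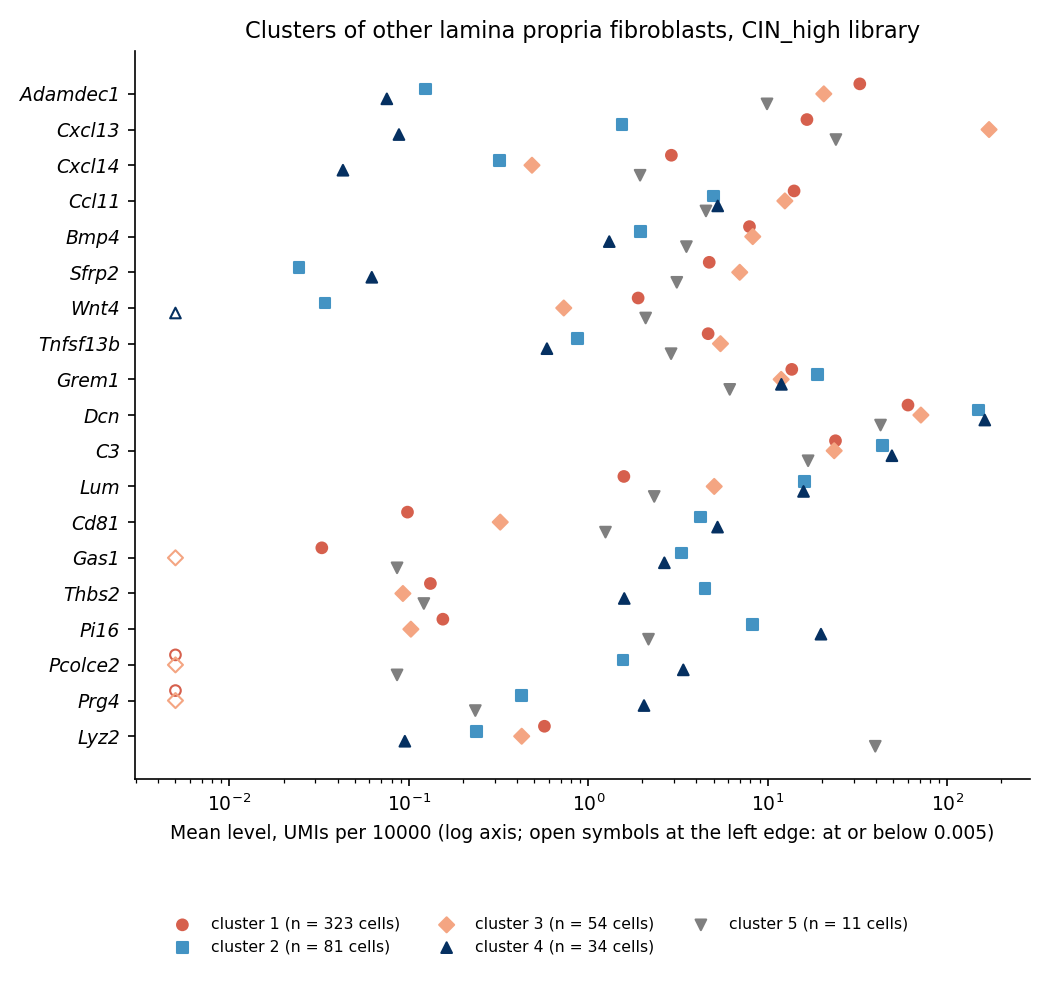
Mean level in UMIs per 10000 (log axis) of selected genes in the 5 clusters of other lamina propria fibroblasts of CIN_high. Among clusters 1 to 4, Adamdec1, Cxcl13, Sfrp2 and Wnt4 were higher in clusters 1 and 3 (circles and light diamonds), and Pi16, Cd81, Gas1 and Thbs2 in clusters 2 and 4 (squares and dark triangles). Lyz2 was highest in cluster 5 at 39.7, whereas Grem1 lay between 11.9 and 18.9 in clusters 1 to 4.

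The genes that led or differed between these clusters were also counted cell by cell at 1 depth, as a description of the same cells. At 3000 UMIs, 94 of 459 other lamina propria fibroblasts (20.5%) had a UMI of Pi16, and 8 of these 94 (8.51%) had one of Adamdec1, which was seen in 74.7% of all 459. Of the 343 cells with Adamdec1, the same 8 (2.33%) had Pi16. Cd81 was seen in 59 of the 94 Pi16 cells (62.8%) and in 16 of the 343 Adamdec1 cells (4.66%). Gas1 was seen in 38 of the Pi16 cells (40.4%) and in 2 of the Adamdec1 cells (0.583%). Cxcl13 went with Adamdec1: 217 of the 230 Cxcl13 cells (94.3%) had both.

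Grem1 did not follow this division. It was seen in 72 of the 94 Pi16 cells (76.6%) and in 273 of the 343 Adamdec1 cells (79.6%). Its level was 16.9 over clusters 2 and 4 and 13.3 over clusters 1 and 3. Ccl11 was intermediate, in 63.8% of the Pi16 cells and 81.9% of the Adamdec1 cells.

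**Figure D5:**
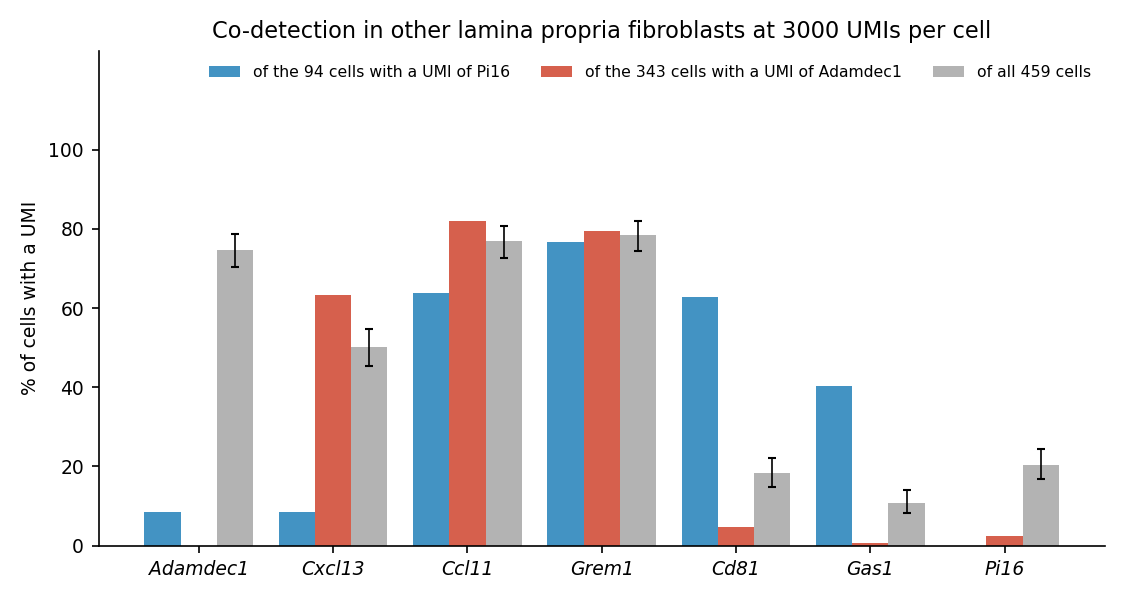
Percent of other lamina propria fibroblasts of CIN_high with a UMI of the gene named on the horizontal axis, at 3000 UMIs per cell, among cells with a UMI of Pi16 (left bars), cells with a UMI of Adamdec1 (middle bars) and all 459 cells (right bars, with exact 95% binomial intervals). Adamdec1 was seen in 8.51% of the Pi16 cells, whereas Grem1 was seen in 76.6% of the Pi16 cells and 79.6% of the Adamdec1 cells.

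Other groups of genes differed between the same cells. The clusters were made from these same expression values, so the counts are a description. Among 11640 genes seen in 2% of cells or more on either side, 7.97% were 2-fold higher in clusters 2 and 4 and 12.9% were 2-fold lower. Of 10 CXC and CX3C chemokines 7 were lower in clusters 2 and 4 and none was higher. Cxcl12, which holds lymphoid and plasma cells in tissue, was at 5.23 in clusters 2 and 4 and 13.7 in clusters 1 and 3. Of 24 elastic fibre and matrix glycoproteins 8 were higher and 2 lower, with Mfap5, a microfibril protein, at 6.02 in clusters 2 and 4 and 0.724 in clusters 1 and 3. Postn, the matrix protein periostin, was one of the 2 lower, at 0.854 in clusters 2 and 4 and 9.41 in clusters 1 and 3. Igfbp6 was at 11.9 in clusters 2 and 4 and 1.67 in clusters 1 and 3. Wnt4 was at 0.0240 in clusters 2 and 4 and 1.73 in clusters 1 and 3, and Fgf10, a growth factor for epithelium, at 0.210 in clusters 2 and 4 and 1.29 in clusters 1 and 3.

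Several of the genes that set the class apart from telocyte-like fibroblasts were carried by clusters 2 and 4. Of the 99 genes past 2-fold higher, 53 passed it in both pairs of clusters taken alone, 14 in clusters 1 and 3 alone and 32 in clusters 2 and 4 alone. For Gas1 and Cd81 the log2 ratio to telocyte-like fibroblasts was 5.54 and 3.11 over the whole class, and 0.92 and 0.27 without clusters 2 and 4. For Pi16 it was 3.21 over the whole class and -0.58 without them. Dcn stood at 61.9 in clusters 1 and 3, against 31.9 in telocyte-like fibroblasts, and C3 at 23.8, against 12.8, both under 2-fold. In clusters 2 and 4 Dcn stood at 153 and C3 at 45.3.

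The upstream sequences of genes that divide the class are given because Pi16, Cd81 and Gas1 were often seen together, and Cxcl13 mostly in other cells. Each is the 250 bases before the gene's start on the gene's own strand, from RefSeq on GRCm38.p6. The GENCODE M21 start of Gas1 lies downstream of its RefSeq start, so the Gas1 window is placed by the RefSeq start alone. Adamdec1 is named only. Capitals mark matches on either strand to the TATA box TATAAA, the GC box GGGCGG, the CCAAT box CCAAT and the AP-1 site TGANTCA. Pi16 lies on the plus strand at chr17:29318632-29318881, Cd81 on the plus strand at chr7:143052500-143052749, Gas1 on the minus strand at chr13:60177536-60177785 and Cxcl13 on the plus strand at chr5:95956689-95956938.
Pi16: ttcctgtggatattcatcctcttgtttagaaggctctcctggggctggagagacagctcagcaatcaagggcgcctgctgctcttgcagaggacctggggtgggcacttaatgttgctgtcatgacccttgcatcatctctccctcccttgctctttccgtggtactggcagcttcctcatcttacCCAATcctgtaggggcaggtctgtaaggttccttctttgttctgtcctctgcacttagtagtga
Cd81: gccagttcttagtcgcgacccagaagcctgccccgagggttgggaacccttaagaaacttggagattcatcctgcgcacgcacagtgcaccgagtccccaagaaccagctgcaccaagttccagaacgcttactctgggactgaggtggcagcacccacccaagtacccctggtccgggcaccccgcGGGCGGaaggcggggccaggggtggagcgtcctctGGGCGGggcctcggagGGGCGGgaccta
Gas1: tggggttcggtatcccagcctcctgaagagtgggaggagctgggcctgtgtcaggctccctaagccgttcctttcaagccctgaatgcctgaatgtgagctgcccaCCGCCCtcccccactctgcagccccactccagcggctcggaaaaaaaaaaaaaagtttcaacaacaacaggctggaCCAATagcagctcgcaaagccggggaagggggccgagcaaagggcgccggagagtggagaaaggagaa
Cxcl13: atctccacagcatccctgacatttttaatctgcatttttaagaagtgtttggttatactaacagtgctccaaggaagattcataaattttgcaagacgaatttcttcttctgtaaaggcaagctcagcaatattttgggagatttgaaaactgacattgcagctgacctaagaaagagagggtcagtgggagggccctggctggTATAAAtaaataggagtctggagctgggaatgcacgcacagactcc

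Cxcl13 held 1 match to TATAAA, which 12.4% of 32851 promoters of this length hold, and none of the other motifs. Cd81 held 3 matches to GGGCGG, found in 32.7% of promoters, and Gas1 held 1. Pi16 and Gas1 each held 1 match to CCAAT, found in 33.8% of promoters. TGANTCA was in none of the 4 windows and in 6.75% of all promoters. No matches overlapped. The share of G and C was 65.6% for Cd81, 58.8% for Gas1, 52.4% for Pi16 and 42.0% for Cxcl13, against a median of 52.4% over all promoters.

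The 4 cells from CIN_low had 4620, 2022, 6510 and 4659 UMIs. Dcn had 61, 5, 102 and 5 UMIs in these cells in that order, and Grem1 had 38, 1, 42 and 9. Cxcl13 had no UMI in any of the 4, and Cd81 and Gas1 had none either. Adamdec1 had 10 and 17 UMIs in the third and the fourth cell and none in the others. Igfbp5, chosen after its values were seen, had 150, 5, 66 and 31. The second cell stood apart from the other 3, with 16 UMIs of Mmp13, a collagenase, 14 of Nrg1 and 14 of Inhba. The other 3 cells had none of Mmp13 or Nrg1, and the third had 3 UMIs of Inhba. Mmp13, Nrg1 and Inhba were also chosen after their values were seen. Of the 17 telocyte-like fibroblasts of CIN_low, 41.2% had a UMI of Mmp13, 64.7% of Nrg1 and 70.6% of Inhba. The second cell had 2 UMIs of F3, its 1 rule gene. Whether it is a telocyte-like cell was not tested. With 4 cells, no level is given for the class in CIN_low and no ratio to CIN_high.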

How the data were processed

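Cells came from 2 libraries of dissociated adenomas, made with droplet-based single-cell RNA sequencing. Per the submitters' processing notes, reads were handled with Cell Ranger 2.1.1 and Seurat on the mm10 build. The deposited matrix of 21041 genes and 14097 cells holds the natural log of 1 plus UMIs per 10000, and the authors' annotation gives cell types and the CIN class. Whole UMI counts were recovered from the deposited values, 100% of them whole within 0.01. Every cell name starts with the G0 prefix while the suffixes match the numbers in both titles, so the libraries were not assigned to G4+T or G0+T.

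The members and gene lists were chosen with earlier results of these data known. Levels are means over cells of UMIs per 10000. Genes were compared when seen in 10% of cells or more, at a level of 0.5 or more, in the class where they were higher. They also needed 30 UMIs or more over both classes. List members needed a UMI in 2% of cells or more of either class, and 2-fold was the line. The genes named are the 12 with the largest ratios in each direction and the list members. For a class without a UMI of a gene, ratios use 3 UMIs over the class as its floor. Counting intervals (95%) belong to ratios of summed UMIs. Called doublets (Scrublet in Scanpy 1.11.5, 140 in CIN_high and 257 in CIN_low) were kept. Clusters, set to 5, used 1000 variable genes and 10 principal components. Malat1, Neat1, receptor segments, hemoglobin, Xist and Y-linked genes were also left out of the clustering. The comparison steps, in Python 3.11.15 with SciPy 1.17.1, numpy 2.4.6 and pandas 2.3.3, were tested on simulated data.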

Additional observations from a re-analysis of the deposited data

How the results depend on the processing

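Of the summary results, 57 values under the alternatives stayed close to those reported and 6 moved. With 0 rule genes set against 3 or more, 212 genes were 2-fold higher and 284 lower than in telocyte-like fibroblasts, in place of 99 and 140. The share of CIN_high fibroblasts in the class was 23.1% with a limit of fewer than 1 rule gene, 68.0% with fewer than 3, and 64.6% with the rule applied after thinning to 3000 UMIs. Cxcl13 was seen in 42.9% of cells at 1500 UMIs. The 415 called gene ratios followed, a part of all those past 2-fold, gave 2231 values, as each was counted again under each alternative that applied. Of these values 2164 stayed past 2-fold in the same direction and 67 did not, 32 of them with clusters 2 and 4 left out. Over all single genes, lists and detection shares followed, called or not, 1082 values moved and 5972 stayed close. Of the called ratios 7 reversed, all with clusters 2 and 4 left out, an alternative chosen after seeing the data, as were the clusters. Against telocyte-like fibroblasts the log2 ratio was then -1.56 for Aspn, -0.51 for Il33, -0.58 for Pi16, -1.87 for Prss23 and -1.71 for Thbs2. Against pericytes it was -0.054 for Ptgis and -1.08 for Thbs2. These genes had their UMIs mostly in the cells left out. Keeping the left-out genes in the clustering, the rule genes among them, kept 49.2% of cluster 1 together. It put clusters 2 and 4 into 1 cluster, and 53 of the 54 cells of cluster 3 joined 159 cells of cluster 1 in another. Set to 4 clusters, clusters 2 and 4 also became 1. Set to 6, 249 of the 323 cells of cluster 1 stayed together. No paired analysis was possible because each class is 1 library. Depth limits genes of few UMIs, and with 1 library per class the spread between mice is unknown.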
